A study of Mus musculus with 7 samples.

Results

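Lymphoid priming genes are genes of the lymphocyte programme that blood stem and progenitor cells begin to transcribe before they commit to a lineage. The 10 genes described here, of 33298 in the deposited table, were found by their symbols, each in a single row. They fall into 4 priming regulators (Ikzf1, Satb1, Notch1 and Tcf3), 3 early lymphoid genes (Il7r, Dntt and Rag1) and 3 genes of the committed B lineage (Ebf1, Pax5 and Cd79a). Expression had been measured by RNA sequencing of hematopoietic stem cells (HSCs) from mouse bone marrow, sorted as lineage-negative cells with Sca-1, c-Kit and CD150 but without CD48, about 800 cells to a library. The 3 Dek_cKO libraries came from mice with floxed alleles of Dek and the Tie2-Cre transgene, and the 4 Dek_fl libraries from mice with the floxed alleles, for which the labels name no Cre. All mice were 12 weeks old and in homeostasis, with strain and sex not stated in the labels. Tie2-Cre is driven in endothelial as well as blood-forming cells, and no group carries Cre without floxed Dek. DEK is an abundant chromatin-binding protein. The comparison asks how its loss alters the transcripts of HSCs. Values are FPKM, which divide a gene's reads by its transcript length and by the library's total, so that levels of different genes can be compared per length.

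In the textbook order, Ikaros (Ikzf1), SATB1, Notch1 and the E protein E2A (Tcf3) act early. The receptor of interleukin 7, terminal transferase (Dntt) and the recombinase RAG1 mark the first lymphoid progenitors. EBF1 and PAX5 then fix the B-cell fate and turn on parts of the B-cell receptor such as CD79A. E proteins bind the short sequence called an E-box, EBF1 a palindrome, and Ikaros a GGGAA-type core. HSCs are held to transcribe some early genes at low levels without the committed ones.

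The promoters of 3 genes that lie downstream of the regulators are shown because their transcripts stood far apart in these libraries, Dntt near the top of the range and Rag1 and Cd79a at or near 0. Each runs 5′ to 3′ from 250 bases before to 50 bases after the transcript start in RefSeq on GRCm38.p6. They lie at chr19:41029025-41029324 (plus strand) for Dntt, chr2:101649483-101649782 (minus strand) for Rag1 and chr7:24897247-24897546 (plus strand) for Cd79a. Capitals mark matches, on either strand, to an E-box (CANNTG) or to the Ikaros core searched (TGGGAA).
Dntt: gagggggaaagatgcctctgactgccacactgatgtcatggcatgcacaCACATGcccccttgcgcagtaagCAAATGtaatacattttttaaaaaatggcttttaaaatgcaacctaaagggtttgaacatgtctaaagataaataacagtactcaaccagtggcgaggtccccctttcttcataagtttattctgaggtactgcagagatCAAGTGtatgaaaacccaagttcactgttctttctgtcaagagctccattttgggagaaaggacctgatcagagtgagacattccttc
Rag1: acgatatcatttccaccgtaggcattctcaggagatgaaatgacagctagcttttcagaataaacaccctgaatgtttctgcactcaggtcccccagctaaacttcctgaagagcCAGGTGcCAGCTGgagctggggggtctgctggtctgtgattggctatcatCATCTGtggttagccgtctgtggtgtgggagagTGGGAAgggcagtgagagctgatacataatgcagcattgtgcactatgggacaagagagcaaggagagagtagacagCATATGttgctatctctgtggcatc
Cd79a: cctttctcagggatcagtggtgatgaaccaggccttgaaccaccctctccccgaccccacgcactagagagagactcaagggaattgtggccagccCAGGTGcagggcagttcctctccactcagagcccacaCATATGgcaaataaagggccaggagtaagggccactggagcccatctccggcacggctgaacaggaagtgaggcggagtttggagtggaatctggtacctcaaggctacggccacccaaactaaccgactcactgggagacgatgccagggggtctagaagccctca

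The window held 3 E-boxes for Dntt, 4 for Rag1 and 2 for Cd79a. Of all 32851 promoters of this length, 72.3% held at least 1 E-box, so these matches do not set the 3 genes apart. Of these 3, only Rag1 held the 6-base string TGGGAA, although the shorter GGGAA, which was not counted, can be read in all 3. TGGGAA was in 25.6% of all promoters. The EBF1 palindrome (TCCC and GGGA with 2 bases between) was in none of the 16 promoters of the 10 genes and in 0.904% of all promoters. A match of letters is not a bound site, and no binding was measured here.

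The libraries were uneven, which sets how far any of these genes can be compared. Library totals recovered from the values ran from 4422644 to 12540429 reads in Dek_cKO and from 4209153 to 26951520 reads in Dek_fl. Dek_fl replicate 4 stood apart, with 8575 genes above 0 against 14291 to 19950 in the others, and with 101 of 1810 abundant genes (a mean of 50 FPKM or more) listed at 0 against 9 to 45. A gene is therefore called listed at 0 where its value is 0, not absent. Dek, on chromosome 13 from 47084775 to 47106201 (minus strand) of GRCm38, stood at 9.60, 8.40 and 12.7 FPKM in Dek_cKO replicates 1 to 3. In Dek_fl replicates 1 to 4 it stood at 77.0, 117.8, 143.0 and 26.0 FPKM (p = 0.0571, exact permutation test, two-sided over 35 splits, where 0.0286 is the smallest possible). The value in Dek_cKO replicate 3 has 5 decimals and is not a whole number of reads, and multiplied by 10 it would be 126.6 FPKM, with p = 0.314 by the same exact permutation test. Every value above 0 of 9 of the 10 lymphoid genes stood for a whole number of reads at an annotated transcript length. For Dntt the length itself was fitted to give whole reads.

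The sort itself was checked against its markers. Of the long-term HSC markers, Ly6a (Sca-1) was at 88.7 to 260.7 FPKM in Dek_cKO and 111.4 to 310.3 FPKM in Dek_fl. Kit was at 59.4 to 266.7 FPKM in Dek_cKO and 70.9 to 120.1 FPKM in Dek_fl. Slamf1, which encodes CD150 and was named after its values were seen, was at most 1.80 FPKM in Dek_cKO and 1.70 FPKM in Dek_fl. Cd48, whose protein the sort excludes, was at 52.3, 7.82 and 135.1 FPKM in Dek_cKO replicates 1 to 3 and at 145.8, 206.0, 146.5 and 4.10 FPKM in Dek_fl replicates 1 to 4. The transcripts of this pair of sort markers therefore did not follow the surface phenotype in most libraries.

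Of the regulators, Ikzf1, which encodes the zinc-finger factor Ikaros (chromosome 11, 11685003 to 11772926, plus strand), was detected in all libraries. It stood at 59.4, 17.9 and 15.0 FPKM in Dek_cKO replicates 1 to 3 and at 7.501, 16.9, 27.0 and 68.1 FPKM in Dek_fl replicates 1 to 4. Each group held a library near 60 FPKM or above and others below 30, and the groups overlapped throughout. The means were 30.8 ± 24.8 FPKM in Dek_cKO (SD, n = 3) and 29.9 ± 26.7 FPKM in Dek_fl (SD, n = 4). The lowest value, in Dek_fl replicate 1, rests on 163 reads, with a 95% Poisson interval of 6.39 to 8.75 FPKM. The 9.08-fold range between libraries was thus wider than counting error, which is all that such intervals cover, since reads without molecular identifiers are not independent molecules. In these bulk libraries fewer cells that transcribe a gene and less RNA per cell cannot be told apart.

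Satb1, which encodes a chromatin organiser of lymphoid genes (chromosome 17, 51736187 to 51833290, minus strand), was at 23.4, 13.8 and 3.63 FPKM in Dek_cKO. In Dek_fl it was at 23.3, 8.85, 15.2 and 69.1 FPKM. Dek_fl replicate 4 held the highest value and Dek_cKO replicate 3 the lowest, and replicate 1 of Dek_cKO and of Dek_fl differed by less than 0.1 FPKM. The means were 13.6 ± 9.87 FPKM in Dek_cKO (SD, n = 3) and 29.1 ± 27.3 FPKM in Dek_fl (SD, n = 4).

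Tcf3, which encodes the E proteins E12 and E47 (chromosome 10, 80409514 to 80433647, minus strand), was at 10.4, 51.1 and 38.8 FPKM in Dek_cKO. In Dek_fl it was at 52.3, 21.98, 31.0 and 75.9 FPKM. It was the highest of the 4 regulators in 6 of 7 libraries, Dek_cKO replicate 1 being the exception. The means were 33.5 ± 20.9 FPKM in Dek_cKO (SD, n = 3) and 45.3 ± 24.0 FPKM in Dek_fl (SD, n = 4).

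Notch1, the receptor that directs progenitors to the T lineage (chromosome 2, 26457903 to 26516663, minus strand), was the lowest regulator in 6 of 7 libraries, Satb1 being lower in Dek_cKO replicate 3. It was at 8.01, 6.05 and 3.89 FPKM in Dek_cKO and at 3.26, 1.11, 5.08 and 0.117 FPKM in Dek_fl. Only Dek_fl replicate 3 reached into the range of Dek_cKO. The value in Dek_fl replicate 4 rests on 5 reads, while the other libraries had 130 to 1300. The means were 5.98 ± 2.06 FPKM in Dek_cKO (SD, n = 3) and 2.39 ± 2.22 FPKM in Dek_fl (SD, n = 4). A noncoding gene on the opposite strand that shares exon bases with Notch1, 0610009E02Rik, stood at 11.8 FPKM in Dek_cKO replicate 1 and at 1.03 FPKM or less in the other 6. The sources used here do not say whether counting used strand.

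Dntt was the most abundant of the 10 genes. It encodes terminal deoxynucleotidyl transferase, which adds untemplated bases at antigen-receptor joints (chromosome 19, 41029275 to 41059525, plus strand). It was at 124.3, 228.9 and 104.4 FPKM in Dek_cKO and at 44.99, 59.8, 173.8 and 290.4 FPKM in Dek_fl. The Dek_cKO values lay inside the range of Dek_fl, and the means were 152.5 ± 66.9 FPKM in Dek_cKO (SD, n = 3) and 142.3 ± 114.3 FPKM in Dek_fl (SD, n = 4). Its rank among 33298 genes was between 239 and 2113 in each library, against 1214 to 5251 for Tcf3. Dntt exceeded Ikzf1, Satb1 and Notch1 in 7 of 7 libraries and Tcf3 in 6 of 7. Dek_fl replicate 4 and Dek_cKO replicate 2, which had the highest Dntt, had the lowest Cd48, and a part of any one cell type in this was not tested.

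The other early lymphoid genes were at the edge of detection. Il7r, the alpha chain of the interleukin 7 receptor (chromosome 15, 9505788 to 9530176, minus strand), was at 0.703 FPKM in Dek_cKO replicate 2, which is 11 reads, and listed at 0 in Dek_cKO replicates 1 and 3. In Dek_fl it was at 0.0943 FPKM in replicate 3, which is 9 reads, and listed at 0 in the other 3 libraries. A count of 3 reads of Il7r would be 0.0314 to 0.201 FPKM, depending on the library. Rag1 (chromosome 2, 101638282 to 101649501, minus strand) was at 0.127 FPKM in Dek_cKO replicate 1 and listed at 0 in Dek_cKO replicates 2 and 3. In Dek_fl it was at 0.288 and 0.0281 FPKM in replicates 1 and 3 and listed at 0 in the other libraries. No library had more than 8 reads of Rag1, although B230118H07Rik, which shares exon bases with it on the same strand, stood at up to 57.4 FPKM in Dek_cKO and 52.1 FPKM in Dek_fl.

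The committed B-lineage genes were low in all libraries, with at least 1 FPKM in a single library for Pax5 and for Cd79a and in none for Ebf1. Ebf1 (chromosome 11, 44617317 to 45008091, plus strand) was at 0.281, 0.605 and 0 FPKM in Dek_cKO and at 0.278, 0, 0.0558 and 0 FPKM in Dek_fl, and no library had more than 16 reads. Pax5 (chromosome 4, 44524757 to 44710487, minus strand) was at 0.462, 0 and 2.56 FPKM in Dek_cKO and at 0, 0.0160, 0.0695 and 0 FPKM in Dek_fl. The highest Pax5 value, in Dek_cKO replicate 3, rests on 257 reads (95% Poisson interval 2.26 to 2.89 FPKM), against at most 22 reads in any other library. Both opposite-strand genes that share exon bases with Pax5, Gm12462 and 5730488B01Rik, were listed at 0 in that library.

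Cd79a, the Ig-alpha chain of the B-cell receptor (chromosome 7, 24897381 to 24902197, plus strand), was at 3.11 FPKM in Dek_cKO replicate 1 and listed at 0 in Dek_cKO replicates 2 and 3. That value rests on 27 reads (95% Poisson interval 2.05 to 4.53 FPKM). In Dek_fl it was at 0.0438 FPKM in replicate 2, a single read, and listed at 0 in the other 3 libraries. The 3 libraries with the most reads of Ebf1, Pax5 and Cd79a were thus different ones, all of them Dek_cKO.

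**Figure D1:**
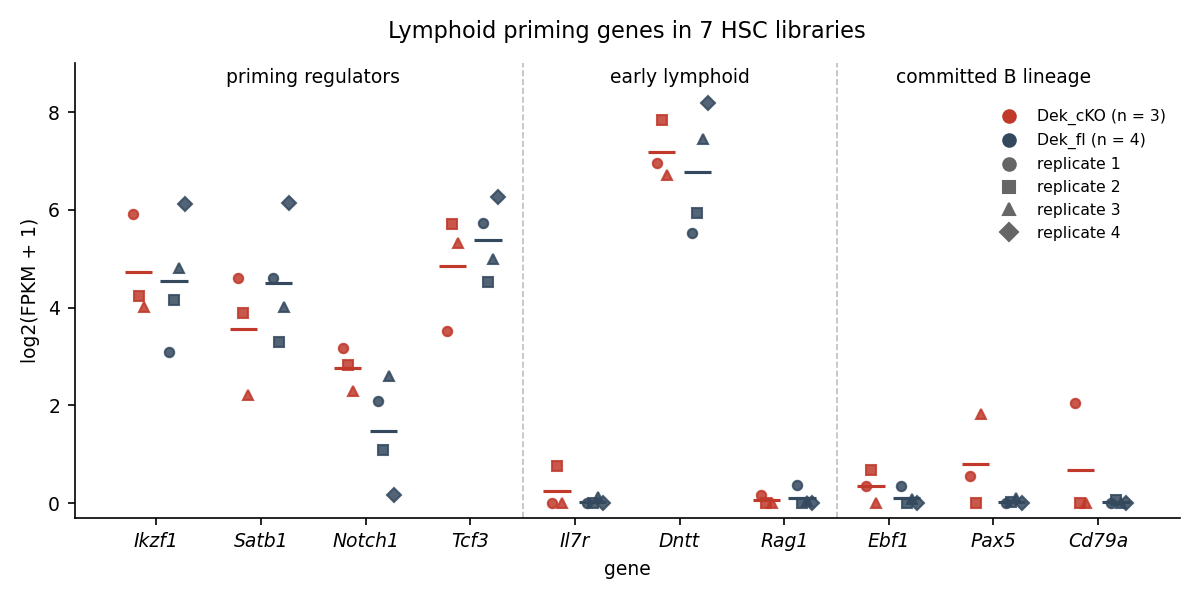
Expression of the 10 genes on the log2(FPKM + 1) scale, with 1 point for each library, marker shapes for replicate numbers and bars for group means, Dek_cKO (n = 3) left of Dek_fl (n = 4) for each gene. Dntt stands highest, the regulators lie below it with wide spread in both groups, and Il7r, Rag1 and the committed B-lineage genes lie near 0.

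By median over the 7 libraries the order of levels was Dntt (124.3 FPKM), Tcf3 (38.8), Ikzf1 (17.9), Satb1 (15.2), Notch1 (3.89), then Ebf1 (0.0558) and Pax5 (0.0160), with Il7r, Rag1 and Cd79a at a median of 0. Neighbours in this order overlapped in range. Tcf3 was above Ikzf1 in 6 of 7 libraries and Ikzf1 above Satb1 in 5 of 7, whereas Ikzf1 was above Notch1 in 7 of 7.

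Within every library the regulators stood above the committed B-lineage genes. The summed regulators were at 101.2, 88.9 and 61.4 FPKM in Dek_cKO and at 86.3, 48.8, 78.2 and 213.2 FPKM in Dek_fl. The summed committed genes were at 3.86, 0.605 and 2.56 FPKM in Dek_cKO and at 0.278, 0.0598, 0.125 and 0 FPKM in Dek_fl. On the log2(FPKM + 1) scale the mean level of the regulators minus that of the committed genes was 3.32, 3.94 and 2.84 in Dek_cKO and 3.76, 3.24, 4.05 and 4.67 in Dek_fl. The gap averaged 3.37 ± 0.547 in Dek_cKO (SD, n = 3) and 3.93 ± 0.596 in Dek_fl (SD, n = 4), and the groups overlapped. It had a median of 3.76 over the 7 libraries, which was 6.42 with a pseudocount of 0.1, since the committed genes lie near 0.

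The 2 classes were also set side by side between the groups. The mean level of the regulators was 3.97 ± 0.454 in Dek_cKO (SD, n = 3) and 3.98 ± 0.580 in Dek_fl (SD, n = 4) on the log2(FPKM + 1) scale. That of the committed genes was 0.607 ± 0.377 in Dek_cKO (SD, n = 3) and 0.0512 ± 0.0505 in Dek_fl (SD, n = 4). The summed committed genes did not overlap between groups, yet Ebf1, Pax5 and Cd79a each overlapped on their own. The sums stood for 59, 16 and 257 reads in Dek_cKO and 7, 3, 24 and 0 reads in Dek_fl, led by Cd79a, Ebf1 and Pax5 in Dek_cKO replicates 1, 2 and 3. No test is given for a sum over chosen genes. Among tested single genes the groups did not overlap in 4.94%. Those genes reached 1 FPKM in 3 or more libraries, which none of Ebf1, Pax5 and Cd79a did. That share is therefore no background for their sum.

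**Figure D2:**
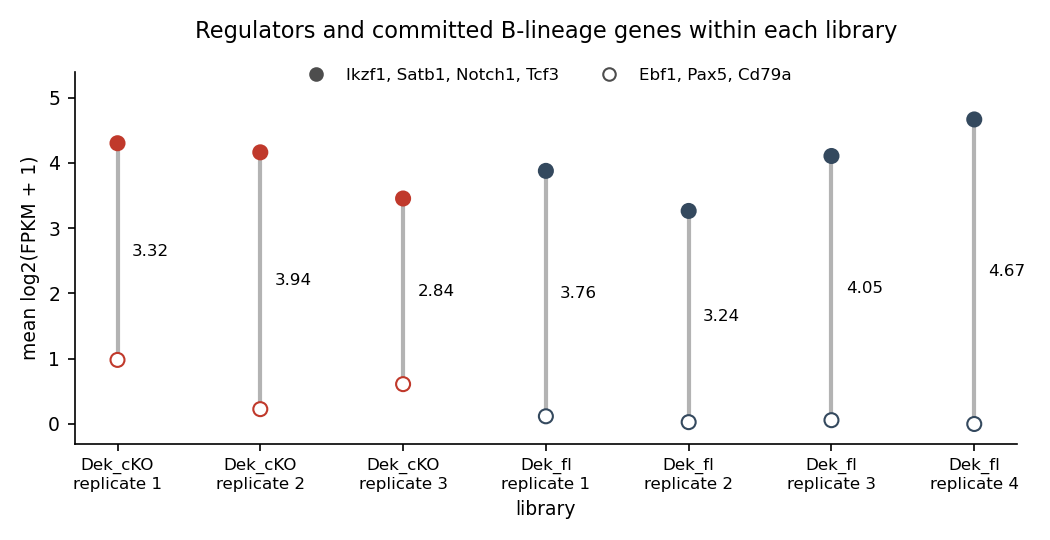
Mean log2(FPKM + 1) of the 4 regulators (filled) and of the 3 committed B-lineage genes (open) in each library, Dek_cKO left of Dek_fl, with the gap between them printed beside each line. The gap lies between 2.84 and 4.67 in the 7 libraries, and the open points of Dek_cKO lie above those of Dek_fl. Each of the 3 committed genes overlapped between the groups on its own.

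None of the 10 genes was called higher or lower in Dek_cKO. The 5 that reached 1 FPKM in 3 or more libraries entered the limma test among 10260 genes, of which 0% were called higher and 0% lower at an adjusted p under 0.05. The smallest adjusted p was 0.9999, and voom on the recovered reads also called 0. At an unadjusted p under 0.05, 218 genes (2.12%) were higher and 186 (1.81%) lower, and none of the 5 was among them. The groups did not overlap in 293 tested genes (2.86%) with Dek_cKO higher and in 214 (2.09%) with Dek_cKO lower, again with none of the 5 among them.

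Notch1 had a log2 fold change of Dek_cKO over Dek_fl of 1.28 (SE 1.22, 95% interval -1.26 to 3.82, unadjusted p = 0.307 by limma). Satb1 had -0.94 (SE 1.19, interval -3.44 to 1.55, unadjusted p = 0.438 by limma). Tcf3 had -0.54 (SE 0.959, interval -2.54 to 1.47), Dntt 0.41 (SE 0.717, interval -1.09 to 1.90) and Ikzf1 0.18 (SE 1.10, interval -2.11 to 2.48). Each interval spans 0 and leaves room for changes past 1.9 on the log2 scale in at least 1 direction, so the libraries do not show that these genes are alike in the 2 groups. The median over the 5 was 0.18, with 3 above and 2 below 0, against 0.05 over all tested genes.

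The sign of 3 of the 5 rested on a single library. Ikzf1 was at -0.42 without Dek_cKO replicate 1 and at -0.30 without Dek_fl replicate 1. Tcf3 was at 0.13 without Dek_cKO replicate 1, and Dntt at -0.01 without Dek_fl replicate 1. Without Dek_fl replicate 4, the library that stood apart, the log2 fold changes were 0.84 for Notch1, -0.41 for Satb1, -0.24 for Tcf3, 0.88 for Dntt and 0.70 for Ikzf1. Satb1 stayed below 0 and Notch1 above 0 in each of the 7 fits that left out a library.

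The other 5 genes were below the filter and were read from a fit over all 33097 genes above 0 in some library. Their adjusted p was 0.696 for Il7r, Pax5 and Cd79a, 0.770 for Ebf1 and 0.883 for Rag1 by limma. That fit called 0 genes, with 314 at an unadjusted p under 0.05. No size is read from their fitted fold changes, which depend on the pseudocount, since most of their values are 0 or rest on fewer than 30 reads.

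**Figure D3:**
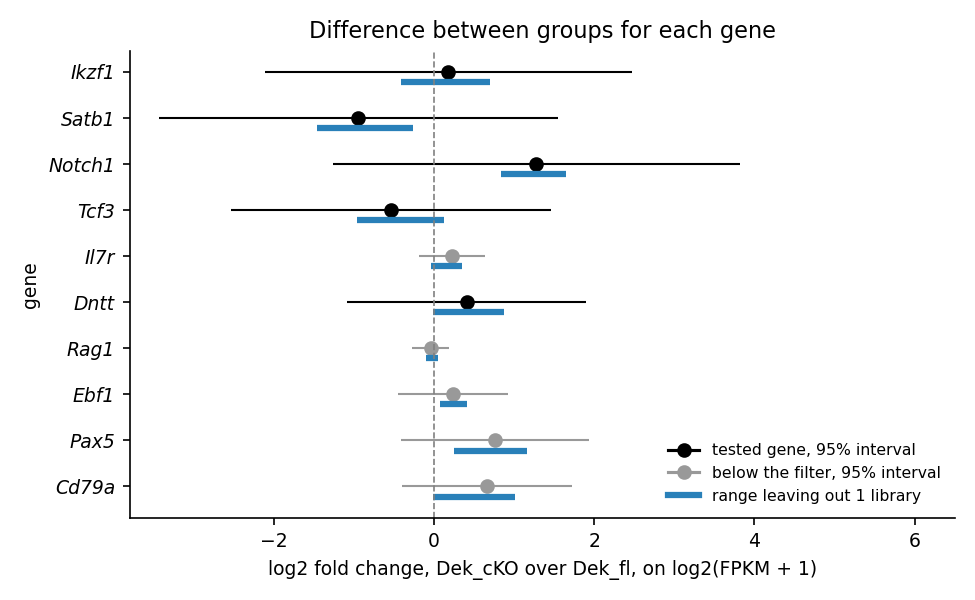
Log2 fold change of Dek_cKO over Dek_fl for each gene on the log2(FPKM + 1) scale, with the 95% interval of limma and, below it, the range of estimates when each library is left out in turn. All 10 intervals include 0, and those of Ikzf1, Satb1, Notch1 and Tcf3 are the widest, up to 3.82 for Notch1.

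How the 5 expressed genes varied together is given as a description over the 7 libraries, which share depth and composition effects across genes. Pearson's r of log2(FPKM + 1) was highest for Ikzf1 with Dntt, at 0.698, and next for Ikzf1 with Satb1, at 0.571. It was lowest for Notch1 with Tcf3, at -0.504. The regulators thus had no common order of libraries. Over all tested genes, the profiles nearest to a regulator were Atp6v1g1 (0.991), a subunit of the vacuolar proton pump, and Gstz1 (0.973) for Ikzf1. They included the cyclin gene Ccng2 (0.980) for Satb1, and were Anxa6 (0.981) and Mrpl19 (0.970) for Notch1, and 2410006H16Rik (0.976) and Ndufb2 (0.971) for Tcf3. Of the 10260 genes, 25 were past 0.9 for Ikzf1, 15 for Satb1, 69 for Notch1 and 57 for Tcf3. The number expected by chance over 7 libraries was not computed, so no shared regulation is read from these counts or profiles.

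Genes around the regulators were read from 6 lists, and no member of any passed the adjusted threshold by limma. Of the Ikaros family and its partners, 9 of 13 were tested and 0 had an unadjusted p under 0.05, with a median log2 fold change of -0.05. The most abundant were Myb, a progenitor transcription factor, at 93.5 to 366.9 FPKM in Dek_cKO and 90.6 to 293.5 FPKM in Dek_fl, and the deacetylase Hdac1. Among the other Ikaros family genes, Ikzf2 was at 4.91 to 38.1 FPKM in Dek_cKO and 1.61 to 25.1 FPKM in Dek_fl, while Ikzf3, which lymphocytes use later, was at most 0.0173 FPKM in Dek_cKO and 0.413 FPKM in Dek_fl. These 2 were named after their values were seen.

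Of the E proteins and their partners and inhibitors, 7 of 9 were analysed and tested, 0 with an unadjusted p under 0.05, with a median of 0.26. Lmo2, a bridging factor of E-protein complexes, was at 882.6, 1007.4 and 596.9 FPKM in Dek_cKO and at 687.2, 813.5, 737.1 and 267.5 FPKM in Dek_fl (log2 fold change 0.49, SE 0.455). Its partner Lyl1 was at 4.48 to 115.0 FPKM in Dek_cKO and 5.15 to 135.2 FPKM in Dek_fl. Id1, an inhibitor that keeps E proteins from binding DNA, did not overlap between groups, at 5.56, 6.34 and 8.85 FPKM in Dek_cKO and 1.65, 2.30, 0 and 0 FPKM in Dek_fl (log2 fold change 2.18, SE 1.12, unadjusted p = 0.0660 by limma). Id1 was named after its values were seen, and its 5 values above 0 are not whole reads at either annotated transcript length. Groups did not overlap in 4.94% of all tested genes.

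Of the Notch signalling genes, 5 of 15 analysed were tested and 0 had an unadjusted p under 0.05, with a median of 0.42. The most abundant was Adam10, a protease that cleaves Notch at the cell surface, at 31.5 to 50.5 FPKM in Dek_cKO and 12.0 to 55.5 FPKM in Dek_fl. Of the Notch targets, Hes1 was at 1.63 FPKM in Dek_cKO replicate 3 and listed at 0 in the other 6 libraries. Nrarp was at 30.3 and 3.37 FPKM in Dek_cKO replicates 1 and 3 and listed at 0 in Dek_cKO replicate 2 and all 4 Dek_fl libraries. Hes1 and Nrarp were named after their values were seen.

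Of the interleukin 7 and Flt3 signalling genes, 9 of 10 were tested, with 1 higher and 0 lower at an unadjusted p under 0.05 and a median of -0.06. The 1 was Jak3, the kinase that works with the common gamma chain, at 89.9, 50.3 and 38.7 FPKM in Dek_cKO and 30.0, 23.4, 3.29 and 0 FPKM in Dek_fl. The groups did not overlap, and its log2 fold change was 2.92 (SE 1.30, unadjusted p = 0.0360, adjusted p = 0.9999 by limma), or 1.95 (unadjusted p = 0.0749 by limma) without Dek_fl replicate 4. Its unadjusted p by limma was also above 0.05, and at most 0.115, without any 1 of the Dek_cKO libraries or Dek_fl replicate 3. Stat5a, a transcription factor that Jak kinases activate, did not overlap the other way, at 2.04, 8.23 and 17.8 FPKM in Dek_cKO and 38.4, 27.8, 27.8 and 27.6 FPKM in Dek_fl. Its log2 fold change was -1.95 (SE 1.14, unadjusted p = 0.105, adjusted p = 0.9999 by limma), and it was named after its values were seen. Among all tested genes the groups did not overlap in 4.94%. Flt3, the receptor tyrosine kinase of lymphoid-primed progenitors, was at 30.5, 26.3 and 119.4 FPKM in Dek_cKO and 26.3, 65.8, 49.97 and 159.8 FPKM in Dek_fl. Il2rg, the common gamma chain, was at 26.3 to 142.7 FPKM in Dek_cKO and 45.2 to 75.8 FPKM in Dek_fl. Il2rg, a partner chain of Il7r, was thus present where Il7r itself was at or near 0.

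Of the V(D)J recombination and end-joining genes, 5 of 8 were tested and 0 had an unadjusted p under 0.05, with a median of -0.53. The Ku subunits Xrcc6 (1.44 to 74.7 FPKM in Dek_cKO, 3.02 to 47.3 FPKM in Dek_fl) and Xrcc5 (2.12 to 79.8 FPKM in Dek_cKO, 3.73 to 27.3 FPKM in Dek_fl) were the most abundant. Of the lymphoid progenitor surface genes, 4 of 7 were tested, 0 with an unadjusted p under 0.05 by limma. All 4 had a log2 fold change below 0, as did 4926 of the 10260 genes tested. The median of the 4 was -0.83. Cd27 was at 4.63, 148.1 and 41.4 FPKM in Dek_cKO and 80.9, 223.4, 116.4 and 87.4 FPKM in Dek_fl (log2 fold change -1.84, SE 0.938).

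**Figure D4:**
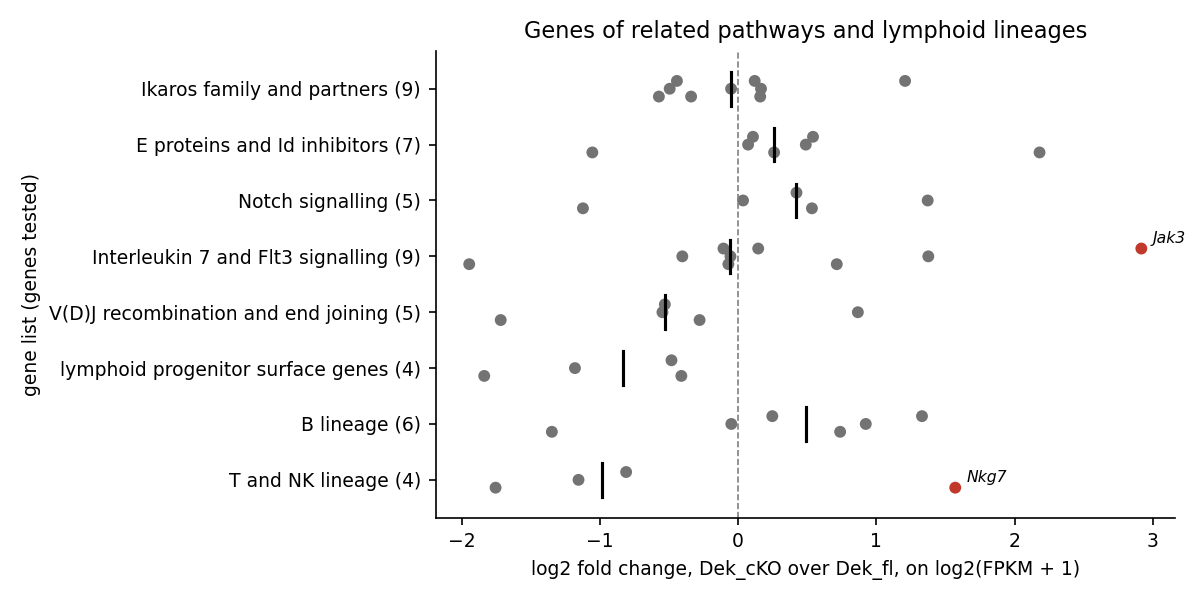
Log2 fold change of Dek_cKO over Dek_fl for the tested genes of the 6 lists above and of the B-lineage and T and NK markers, 1 point for each gene, with a black bar at the list's median. Jak3 and Nkg7, in red, are the genes plotted here with an unadjusted p under 0.05 by limma, and 0 genes passed after adjustment.

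Markers of mature lymphocytes were read beside the committed genes. Of 16 B-lineage markers analysed, 6 were tested and 0 had an unadjusted p under 0.05, and their summed level was 113.9 to 184.0 FPKM in Dek_cKO and 17.2 to 182.2 FPKM in Dek_fl. The most abundant were Cd37, Cd79b, Cd72 and Btk. Cd79b, the partner of Cd79a in the receptor, was at 64.1, 1.42 and 55.1 FPKM in Dek_cKO and 66.2, 5.94, 29.3 and 0 FPKM in Dek_fl, well above Cd79a in all libraries but Dek_fl replicate 4. Of the defining B-cell markers, Ms4a1 (CD20) was at most 0.0519 FPKM in Dek_cKO and 0.386 FPKM in Dek_fl. Of the 6 tested genes, 4 had a log2 fold change above 0 and 2 below. Vpreb1, among the 2, was at 0, 0 and 1.56 FPKM in Dek_cKO and 12.4, 5.68, 0.643 and 0 FPKM in Dek_fl (log2 fold change -1.35, SE 1.02). Ms4a1 and Vpreb1 were named after their values were seen, and the part of B cells in the Cd79a value of Dek_cKO replicate 1 was not tested.

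Of 14 T and NK markers analysed, 4 were tested, with 1 higher and 0 lower at an unadjusted p under 0.05. The 1 was Nkg7, a granule protein gene, at 450.5, 588.8 and 1344.8 FPKM in Dek_cKO and 439.0, 576.3, 357.1 and 34.9 FPKM in Dek_fl (log2 fold change 1.57, SE 0.748, or 0.66 without Dek_fl replicate 4, unadjusted p = 0.170 by limma). Next came Lck, at 0.110 to 57.3 FPKM in Dek_cKO and 0.870 to 81.0 FPKM in Dek_fl, then Cd4 and Tcf7. Cd4, which was not tested, was at 0, 48.6 and 0 FPKM in Dek_cKO and 0, 0.185, 0.143 and 4.27 FPKM in Dek_fl. Tcf7 was at 0.272, 1.10 and 0 FPKM in Dek_cKO and 21.1, 0, 3.12 and 0 FPKM in Dek_fl. Of the CD3 chains, which were named after their values were seen, Cd3d was listed at 0 in all 7 libraries. Cd3e was at most 0.709 FPKM in Dek_cKO and 5.404 FPKM in Dek_fl, in replicate 1, and Cd3g at most 0.534 FPKM in Dek_cKO and 0.0755 FPKM in Dek_fl.

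Markers of other lineages were read in the same way. The 8 tested myeloid genes had log2 fold changes above 0, as did 5334 of the 10260 genes tested. Of the 8, 0 had an unadjusted p under 0.05 by limma. All 12 myeloid genes summed to 240.4 to 11317 FPKM in Dek_cKO and 491.0 to 2240 FPKM in Dek_fl. The top of this range was Dek_cKO replicate 3, where the neutrophil proteases Elane and Prtn3 stood at 5393 and 2019 FPKM. The same library had the highest Pax5 and the lowest Satb1 and, among Dek_cKO, the lowest Dntt, and a part of myeloid progenitors in these values was not tested. Of 12 erythroid and megakaryocyte genes, 9 were tested, with 1 higher, Gp9, and 0 lower at an unadjusted p under 0.05. Gp9 had a log2 fold change of 3.02 (SE 1.45, unadjusted p = 0.0499, adjusted p = 0.9999 by limma), or 2.21 without Dek_fl replicate 1 or 4. Its groups overlapped, and 2.12% of all tested genes were higher at the same unadjusted threshold. The unadjusted p of Nkg7 and of Gp9 by limma was also above 0.05 without any 1 of the Dek_cKO libraries. Pf4, the platelet chemokine, was at 45.4 to 236.6 FPKM in Dek_cKO and 40.6 to 1055 FPKM in Dek_fl, and Itga2b at 36.8 to 44.5 FPKM in Dek_cKO and 9.26 to 111.0 FPKM in Dek_fl. Of the long-term HSC markers, 11 of 13 were tested and 0 had an unadjusted p under 0.05.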

How the data were processed

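The authors deposited a single table of FPKM values, in which each of the 7 libraries has its column. Per the submitters' processing notes, the tools were HTSeq, Cufflinks 2.1.1 and Bowtie 0.12.9 and the build mm10, without their roles or an annotation version. Groups come from the sample titles. The labels do not tie libraries to animals, and the spread behind each p-value, which is that between libraries, may be technical. All 4 Dek_fl libraries were used, although the design text mentions sequencing in triplicate.

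Values were tested as log2(FPKM + 1) with limma 3.58.1 (R 4.3.3), group only, with trend and robust moderation, for genes that reached 1 FPKM in 3 or more libraries. P-values are two-sided and Benjamini-Hochberg adjusted over all genes tested. Fold changes on this scale understate the change of low genes. The step was tested on simulated data. The 10 genes, the gene lists and the naming rule were chosen with earlier results of these data known. The rule took each list's members with an unadjusted p under 0.05 and its 2 most abundant (4 for lymphocyte markers), and for each regulator the 2 most similar tested genes. A few list members are not analysed here, and a few genes that the rule names are not reported here.

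Library totals were found as the numbers at which FPKM, multiplied by the annotated transcript length and the total, gives whole reads within 0.003 reads plus rounding. At annotated lengths 94.97% of 111621 values above 0 were whole, and Dntt was whole at a fitted length of 2128 bases. Positions come from GENCODE M21 on GRCm38, the assembly of mm10, and promoters from RefSeq on GRCm38.p6, in which all 10 genes matched. Alternatives were pseudocounts, filters, scalings, moderation, array weights, a replicate block and leaving out libraries. Chosen after seeing the data were voom on the recovered reads, in which each gene took its longest transcript, and counting the early lymphoid genes with the regulators. Python 3.11.15, pandas 2.3.3 and matplotlib 3.10.9 were used.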

Additional observations from a re-analysis of the deposited data

Results flagged for a closer look

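In 4 of 18 measures examined in Dek_fl, a single library lay far from the other 3 by Dixon's criterion. Chance meets it in about 1 of 20 groups of continuous values, a rate that does not hold for genes with most libraries at or near 0. Of the 4, Il7r at 0.0943 FPKM in Dek_fl replicate 3, Rag1 at 0.288 FPKM in Dek_fl replicate 1 and Cd79a at 0.0438 FPKM in Dek_fl replicate 2, rest on 9, 8 and 1 reads beside values of 0 or near it. The other was the number of abundant genes listed at 0, which was 101 in Dek_fl replicate 4.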

How the results depend on the processing

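By limma, 0 genes were called higher and 0 lower under each of the 18 alternatives to the main test, including the replicate block and the 7 fits without a library (0 in each), and the smallest adjusted p in any was 0.160, by voom. Under the replicate block the log2 fold changes were 0.70 for Ikzf1, -0.41 for Satb1, 0.84 for Notch1, -0.24 for Tcf3 and 0.88 for Dntt, with no call. These equal the estimates without Dek_fl replicate 4, which is alone in its block. The block is thus no separate check of them. Same-numbered libraries did not deviate together over the tested genes (r = -0.0299, -0.0728 and 0.0446 for numbers 1 to 3). No pairing is stated in the labels, and these few values cannot exclude one. Signs turned when a library was left out for Ikzf1 (-0.42 to 0.70), Tcf3 (-0.97 to 0.13), Dntt (-0.0098 to 0.88), Il7r (-0.033 to 0.35), Rag1 (-0.10 to 0.044) and Cd79a (-0.015 to 1.005). With array weights Rag1 was at 0.0083. Satb1, Notch1, Ebf1 and Pax5 kept their sign under every alternative that gave a value, though these fits share most libraries. The filter of 5 FPKM gave no value for the 5 low genes. Pax5 ran from 0.24 without Dek_cKO replicate 3 to 3.86 by voom. Its unadjusted p by limma was lowest with array weights, at 0.0420 (adjusted p = 0.909). The gap between regulators and committed genes had a median of 4.59 with a pseudocount of 0.5, 6.42 with 0.1 and 2.94 with the early lymphoid genes counted among the regulators. It was 3.54 to 3.85 without each library. It moved by less than the spread between libraries (SD 0.606) when any 1 of the 7 genes was left out. Depth limits the low genes: in Dek_fl replicate 1, 3 reads of Cd79a would be 0.489 FPKM.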

Other observations

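Of 11079 genes above 0 in at least 5 libraries, Id1 was the only one reaching 1 FPKM whose values all have 2 decimals or fewer. None of its 5 values above 0 was a whole number of reads at the annotated lengths of 934 and 1160 bases. The genes that the deposited annotation assigns to B cell differentiation number 29, of which 13 were tested, with 0 at an unadjusted p under 0.05 by limma, 9 above and 4 below 0 and a median log2 fold change of 0.46. Rag1 and Cd79a are among the 29.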
